A study of Mus musculus with 2 samples.

Results

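The 10 core glycolytic enzyme genes of skeletal muscle were compared between a pool of FOXO1-Tg mice and a pool of wild-type control mice. The genes are Gpi1, Pfkm, Aldoa, Tpi1, Gapdh, Pgk1, Pgam2, Eno3, Pkm and Ldha, chosen by name as the muscle forms of the steps from glucose 6-phosphate to lactate and not by their values. Earlier results of these data were known when the choice was made. They are 10 of 21368 genes that could be named on the array, and all 10 were among the 16660 genes detected on at least 1 array. Gastrocnemius RNA of 6 male wild-type mice and of 5 male FOXO1-Tg mice, all 25 weeks old, was pooled by genotype, and each pool was hybridized to 1 Agilent 1-color array. FOXO1-Tg mice overexpress the transcription factor FOXO1 in skeletal muscle, and the promoter of the transgene, the number of founder lines and the strain of these mice are not given in the sources used here. With 1 array per group and with mice pooled, the spread between mice cannot be seen, there is no replicate check and no p-value is given.

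Glycolysis converts glucose to pyruvate in the cytosol and yields ATP without oxygen, and lactate dehydrogenase turns the pyruvate to lactate. Fast muscle fibers rely on it during short, intense work, and they carry muscle-specific forms of several of its enzymes, such as phosphofructokinase M, phosphoglycerate mutase 2 and enolase 3. Loss of some of these muscle forms causes glycogen storage disease or exercise intolerance in humans.

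The first check was on the transgene. The probe of Foxo1 with the higher signal gave 4540 (wild-type) and 279457 (FOXO1-Tg), a 56.3-fold difference, whereas the other Foxo1 probe gave 2853 and 3188, a log2 ratio of 0.03. All 6 skeletal muscle markers were detected on both arrays. Their log2 ratios had a median of -0.12 and ran from -1.14 for Mb, which encodes myoglobin (316643 and 156888), to 0.07 for Ttn, which encodes titin. Here, every log2 ratio is FOXO1-Tg over wild-type, after the log2 of each signal was set relative to the 75th percentile of its array, which was 771 on the wild-type array and 844 on the FOXO1-Tg array. This scaling lowers each unscaled log2 ratio by 0.13. The signals below are printed without it, so a probe can have a higher signal in the FOXO1-Tg pool and a log2 ratio below 0. A signal depends on the probe as well as on the RNA, and levels of different genes were not compared.

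All 10 enzyme genes had a log2 ratio below 0, from -0.46 for Pkm to -0.12 for Aldoa, and the median of -0.25 equals a level of 0.840 times that of the wild-type pool. None of the 10 passed 1.5-fold or 2-fold in either direction. Over all 16660 detected genes, 10.8% were lower and 9.18% higher in the FOXO1-Tg pool by more than 1.5-fold, and the shares past 2-fold were 3.86% lower and 4.2% higher. A log2 ratio below 0 was common on these arrays, with 57.2% of all genes below 0 and a median of -0.06. The error that the scanner software assigns to a log2 ratio, combined in quadrature from both arrays, was 0.204 for each of the 21 probes of the 10 genes. Aldoa, Gapdh and Ldha were within 1 such error of 0, 6 genes were between 1 and 2 errors, and Pkm was past 2 errors. Because the error was the same for each probe, its multiples restate the ratios, and it holds no spread between mice.

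The first enzymes of the pathway prepare the sugar and split it. Gpi1 encodes glucose-6-phosphate isomerase, which makes fructose 6-phosphate. Its 3 probes gave signals of 303247, 301878 and 299828 in the wild-type pool and 263989, 260814 and 277730 in the FOXO1-Tg pool. All 3 probes were lower in the FOXO1-Tg pool, with log2 ratios of -0.33, -0.34 and -0.24. Pfkm encodes the muscle subunit of phosphofructokinase, the main control point of glycolysis. Its 1 probe was printed in 10 spots, with signals between 361841 and 402372 (median 387948) in the wild-type pool and between 332967 and 374232 (median 345852) in the FOXO1-Tg pool. The 2 ranges overlapped, but within each pair of matching spots the FOXO1-Tg signal was the lower after scaling, with log2 ratios from -0.32 to -0.23 and a mean of -0.28 ± 0.034 (SD over 10 spots of 1 array pair, which are not replicates of the condition).

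Aldoa encodes aldolase A, which splits fructose 1,6-bisphosphate. Its probe gave 696860 (wild-type) and 703000 (FOXO1-Tg), the smallest difference among the 10 genes, with a log2 ratio of -0.12. This probe lay near the top of the scanner range. Before background subtraction its signal was 85.5% and 89.2% of the saturation level, and it was the only probe of the 10 genes above the highest signal of the software's linear fit to the spike-in RNA (561229 and 530836), so that the ratio of Aldoa rests on signals outside that fit. Tpi1 encodes triosephosphate isomerase, which interconverts the products of aldolase. Its brighter probe gave 272158 and 243275 in the wild-type and FOXO1-Tg pools, and its other probe gave 88848 and 76110. Both probes were lower in the FOXO1-Tg pool, by log2 ratios of -0.29 and -0.35.

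**Figure D1:**
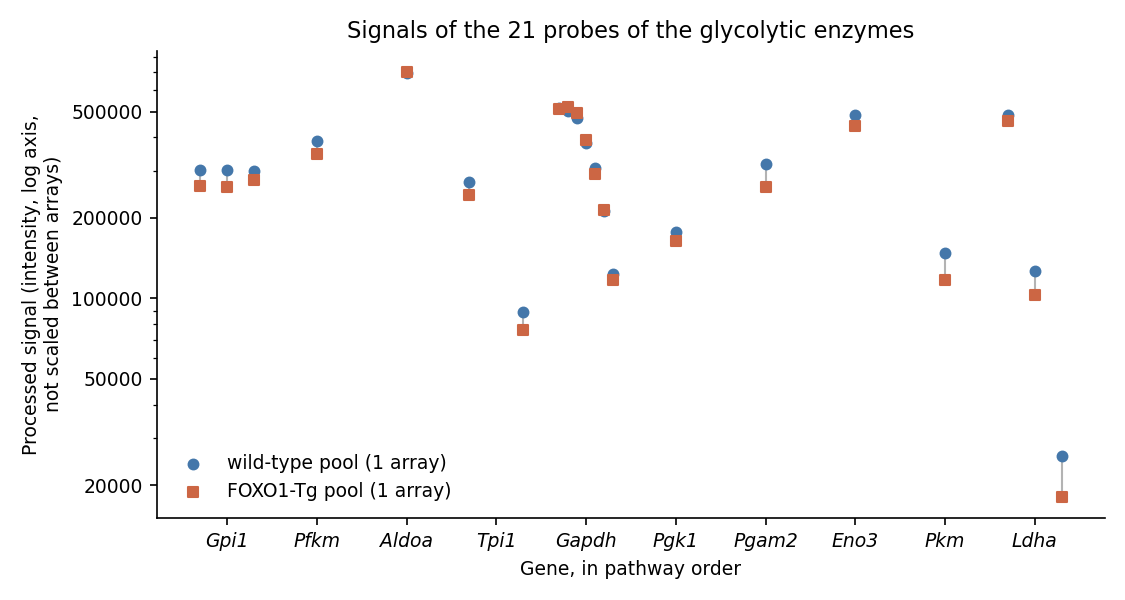
Processed signal of each of the 21 probes of the 10 glycolytic enzyme genes on the wild-type array and on the FOXO1-Tg array, on a log axis and without scaling between arrays. Each point is 1 probe on 1 array (for Pfkm the mean of 10 spots), and the points of a probe lie close together, with the widest gap at the dimmest Ldha probe (25705 and 18155).

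The next steps yield ATP and NADH. Gapdh encodes glyceraldehyde-3-phosphate dehydrogenase, which is often used as a reference gene. It had 7 probes, with signals from 123796 to 516404 in the wild-type pool and from 117614 to 519730 in the FOXO1-Tg pool. Its 7 log2 ratios lay between -0.20 and -0.06, so that the probes differed from one another by no more than 0.14, and all 7 were within 1 scanner error of 0. Pgk1 encodes phosphoglycerate kinase 1, which makes the first ATP of the pathway. Its probe gave 176557 and 163645 in the wild-type and FOXO1-Tg pools, a log2 ratio of -0.24.

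The 2 lowest ratios were among the last enzymes. Pgam2 encodes the muscle form of phosphoglycerate mutase, and its probe gave 317292 (wild-type) and 261794 (FOXO1-Tg). After scaling, Pgam2 was at 0.754 times the wild-type level (log2 ratio -0.41), just under 2 scanner errors from 0. Eno3 encodes the muscle form of enolase, and its probe gave 486744 and 443406, a log2 ratio of -0.26. Pkm encodes the muscle form of pyruvate kinase, which makes the last ATP. Its probe gave 147472 (wild-type) and 117158 (FOXO1-Tg), the lowest ratio of the 10 genes at 0.726 times the wild-type level (log2 ratio -0.46). Its 2 splice forms could not be separated with 1 probe. That probe is assigned to 1 transcript, and whether it reads 1 or both forms was not tested.

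Ldha encodes the A subunit of lactate dehydrogenase, and its 3 probes disagreed the most. The brightest probe gave 484532 and 461147 in the wild-type and FOXO1-Tg pools, a log2 ratio of -0.20. The second probe gave 126462 and 103311, a log2 ratio of -0.42. The dimmest probe gave 25705 and 18155, a log2 ratio of -0.63, and was the only probe of the 10 genes past 1.5-fold. The 3 probes are assigned to the same Ldha transcript (NM_001136069) and differed by 0.43 on the log2 scale. Among the other genes with several probes, the ranges were 0.14 for Gapdh, 0.10 for Gpi1 and 0.06 for Tpi1. The size of the Ldha difference therefore depends on the probe, while its direction was the same for all 3 probes. Whether any probe also reads a related gene or a processed copy was not tested.

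**Figure D2:**
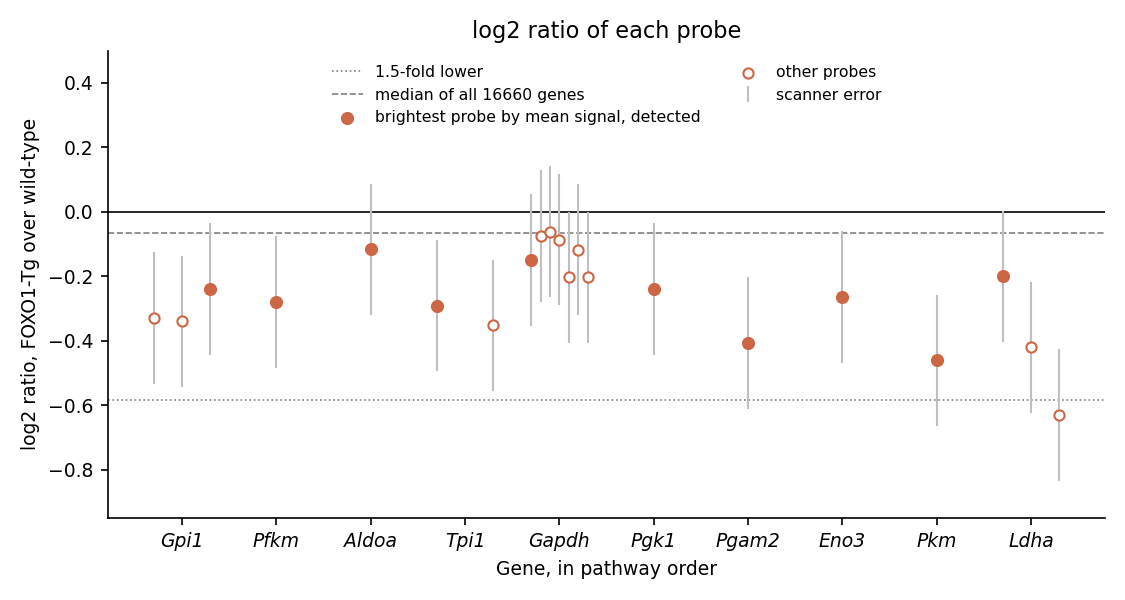
The log2 ratio (FOXO1-Tg over wild-type) of each of the 21 probes in pathway order, with the scanner error as bars, the probe that represents the gene as a filled point and other probes as open points. All 21 points lie below 0, between -0.63 and -0.06, and only the dimmest Ldha probe lies beyond the line for 1.5-fold lower.

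Counting probes rather than genes, all 21 had a log2 ratio below 0 after scaling. Of these, 9 were within 1 scanner error of 0, and 3 were past 2 errors, namely the Pkm probe and the dimmer Ldha probes. Without scaling, 16 probes were lower and 5 higher in the FOXO1-Tg pool. The higher ones were the Aldoa probe and 4 of the 7 Gapdh probes. Probes of 1 gene read the same RNA, so they are no independent evidence on the gene.

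The proximal promoters of the 10 genes were read from RefSeq (GRCm38.p6), from 250 bases before to 50 bases after each start. All 10 genes matched, with 17 windows in all, some of which overlap. FOXO factors bind sequences that contain GTAAACA, and this motif was searched on both strands. It was in 0 of the 17 windows and in 3.65% of all 32851 windows. The core ACGTG, which hypoxia-inducible factors bind and which also lies within the E-box CACGTG, was in 8 of the 17 windows, of 6 genes (Aldoa, Gapdh, Ldha, Pfkm, Pgk1 and Pkm), and in 19.6% of all windows. The usual consensus of the MEF2 motif, bound by a family of muscle transcription factors, was in 1 of the 17 windows, that of Pgam2, and in 3.19% of all windows. TATAAA was in 0 of the 17 and in 13.6% of all windows. A match is a description of the letters in a short window and not a binding site, and the absence of one says nothing about binding elsewhere. The windows of 3 genes are shown because Pkm and Pgam2 had the lowest ratios and Ldha had the window with ACGTG in the most places. Capitals mark ACGTG or its reverse complement in Pkm and Ldha and the MEF2 motif in Pgam2, and each sequence runs 5′ to 3′ on the strand of the gene. The Pgam2 window is chr11:5803747-5804046 on the minus strand, with the MEF2 motif in 1 place and no ACGTG. The Pkm window is chr9:59656977-59657276 on the plus strand, the second of 2 windows of this gene, with matches in 2 places. The Ldha window is chr7:46845554-46845853 on the plus strand, the first of 2 windows of this gene, with matches in 3 places, of which the first 2 are the palindrome CACGTG.
Pgam2: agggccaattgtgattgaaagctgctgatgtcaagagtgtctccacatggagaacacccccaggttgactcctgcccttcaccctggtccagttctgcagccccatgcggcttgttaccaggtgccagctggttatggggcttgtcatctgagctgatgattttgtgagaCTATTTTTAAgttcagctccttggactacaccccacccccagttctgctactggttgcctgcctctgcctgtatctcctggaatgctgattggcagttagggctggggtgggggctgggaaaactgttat
Pkm: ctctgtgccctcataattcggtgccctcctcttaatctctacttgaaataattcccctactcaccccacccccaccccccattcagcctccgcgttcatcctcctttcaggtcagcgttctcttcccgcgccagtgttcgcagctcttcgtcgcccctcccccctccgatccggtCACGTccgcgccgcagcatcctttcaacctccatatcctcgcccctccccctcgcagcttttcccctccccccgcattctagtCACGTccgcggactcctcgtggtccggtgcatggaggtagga
Ldha: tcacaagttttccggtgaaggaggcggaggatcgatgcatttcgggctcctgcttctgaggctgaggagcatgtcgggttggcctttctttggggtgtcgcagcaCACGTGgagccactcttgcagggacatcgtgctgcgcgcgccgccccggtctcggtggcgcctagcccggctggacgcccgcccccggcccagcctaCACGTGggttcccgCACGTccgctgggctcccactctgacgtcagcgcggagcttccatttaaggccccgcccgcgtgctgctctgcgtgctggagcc

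The probes of the 10 genes gave high signals, and genes of high signal as a group also had ratios slightly below 0. Over the 253 other genes with a mean signal at least that of Pkm, the median log2 ratio was -0.13, 77.1% were below 0 and 1.98% were more than 1.5-fold lower. The middle 50% of these genes lay between -0.23 and -0.01. Of these 253 genes, 9 had a lower ratio than Pkm and 12 a lower ratio than Pgam2. For Tpi1, Pfkm and Eno3 the counts were 37, 41 and 47, and for Gpi1 and Pgk1 they were 58 each. Below Ldha lay 77 of the 253 genes, below Gapdh 114 and below Aldoa 132. Pkm and Pgam2 thus lay near the low end of these genes, and Gapdh and Aldoa lay near their middle. The set starts at the signal of Pkm, so Pkm is set against brighter genes, and the spread of ratios depended on signal. The middle 50% of genes detected on both arrays lay between -0.28 and 0.05 at mean signals of 100000 to 200000. Above 200000 it lay between -0.20 and -0.03.

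The spike-in RNAs, which are added for control and do not come from the muscle, gave a second reference. Their 8 probes with signals well above background had log2 ratios between -0.09 and 0.22, with a median of 0.01. At the signals of the glycolytic genes, the spike-in probe at 134365 and 145956 had a log2 ratio of -0.01 ± 0.027 (SD over 35 spots), that at 267943 and 280940 had -0.06 ± 0.040, and the brightest, at 521435 and 535058, had -0.09 ± 0.047. The ratio of Aldoa was close to that of the brightest spike-in. By the brightest probe of each gene, all 10 genes were below all 8 spike-in probes. Other Gapdh probes, at -0.0616, -0.0752 and -0.0865, lay above the brightest spike-in (-0.0920). Among the 21 probes, those of higher signal had ratios closer to 0 (Pearson's r = 0.77 and Spearman's rho = 0.73 over 21 probes, and r = 0.75 and rho = 0.77 over 10 genes). The probes share the same array pair, and several share a gene, so this is a description only.

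**Figure D3:**
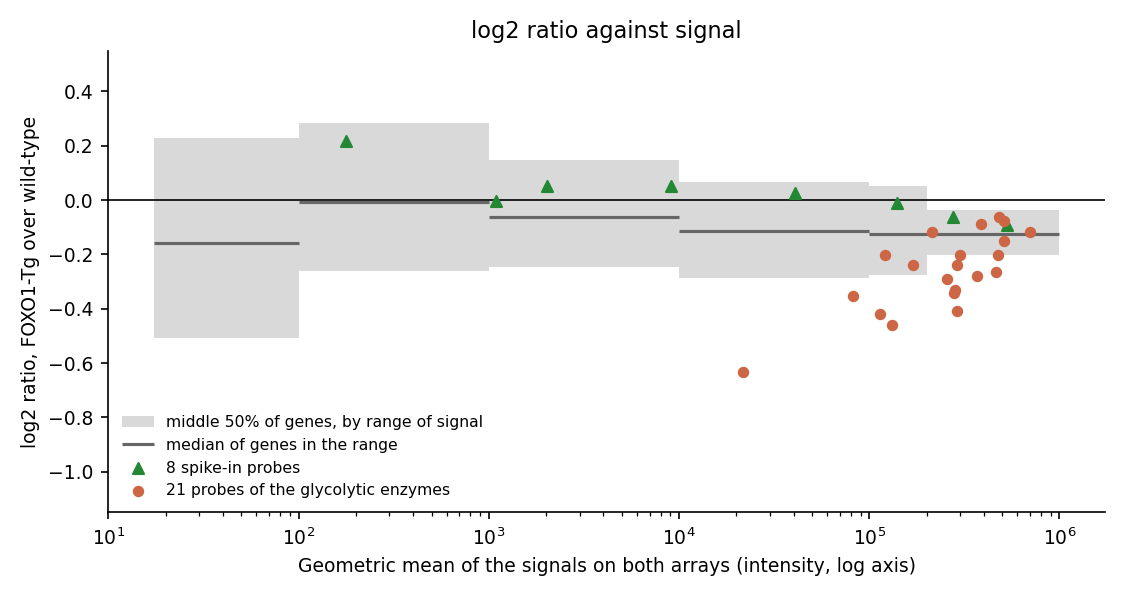
The log2 ratio (FOXO1-Tg over wild-type) against the geometric mean signal of both arrays, on a log axis, for the 21 probes of the glycolytic enzymes and 8 spike-in probes, over bands that hold the middle 50% of detected genes in 6 ranges of signal. The spike-in probes stay between -0.09 and 0.22, and the enzyme probes lie between -0.63 and -0.06, several of them below the band of their range.

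Most steps have isozymes encoded by other genes, which serve mainly other tissues, and some of these had ratios unlike those of the muscle forms. Of 14 isozyme genes, 13 were detected. Aldoc, the aldolase known from brain, gave 450 (wild-type) and 1124 (FOXO1-Tg) (log2 ratio 1.19, 2.28-fold), and it was the only isozyme past 2-fold. Its log2 ratio exceeded that of Aldoa by 1.31, with an error of 0.29. Pgam1, the phosphoglycerate mutase of most other tissues, gave 7845 and 10205 (0.25), which exceeded Pgam2 by 0.66 ± 0.29 (scanner error). Eno2, the neuronal enolase, gave low signals of 68.9 and 123 (0.70) and exceeded Eno3 by 0.97 ± 0.30. These differences within a step were over 2 scanner errors. That error does not hold the spread between genes, which was wider at low signal. The quartiles of the log2 ratios were -0.26 and 0.28 at mean signals of 100 to 1000, and -0.20 and -0.03 above 200000. Aldoc lay above the upper quartile of its range of signal (0.28). So did Eno2 (0.23, below 100) and Pgam1 (0.15, from 1000 to 10000). The part of signal in the differences between isozymes was not tested.

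The phosphofructokinases of liver and platelets, Pfkl and Pfkp, had log2 ratios of 0.11 (266 and 315) and 0.22 (355 and 454), higher than that of Pfkm by 0.39 ± 0.29 and 0.50 ± 0.29. Both ratios lay between the quartiles of genes with mean signals of 100 to 1000 (-0.26 and 0.28). The widely expressed enolase Eno1 gave 27741 and 29762, a log2 ratio of -0.03, which exceeded Eno3 by 0.24 ± 0.29, within the error, and its sign turned under other scalings. Ldhb, the heart form of lactate dehydrogenase, went the other way. It gave 60657 (wild-type) and 38990 (FOXO1-Tg), a log2 ratio of -0.77, which was below that of Ldha by 0.57 (difference -0.57 ± 0.29, just under 2 errors). Genes known from testis gave low signals, with log2 ratios of -0.86 for Ldhc, -0.80 for Eno4, -0.75 for Gapdhs, -0.53 for Ldhal6b and 0.07 for Pgk2. Pklr, the pyruvate kinase of liver and red cells, was well above background in the FOXO1-Tg pool only (12.7 and 20.1) and was at least 1.05-fold higher there. Over the 13 detected isozymes, 2 passed 1.5-fold upward and 4 downward (9.18% and 10.8% over all genes), with a median of 0.07. Under all 14 ways of processing only Aldoc and Ldhb passed it, and with normexp and quantile normalization no other isozyme did.

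**Figure D4:**
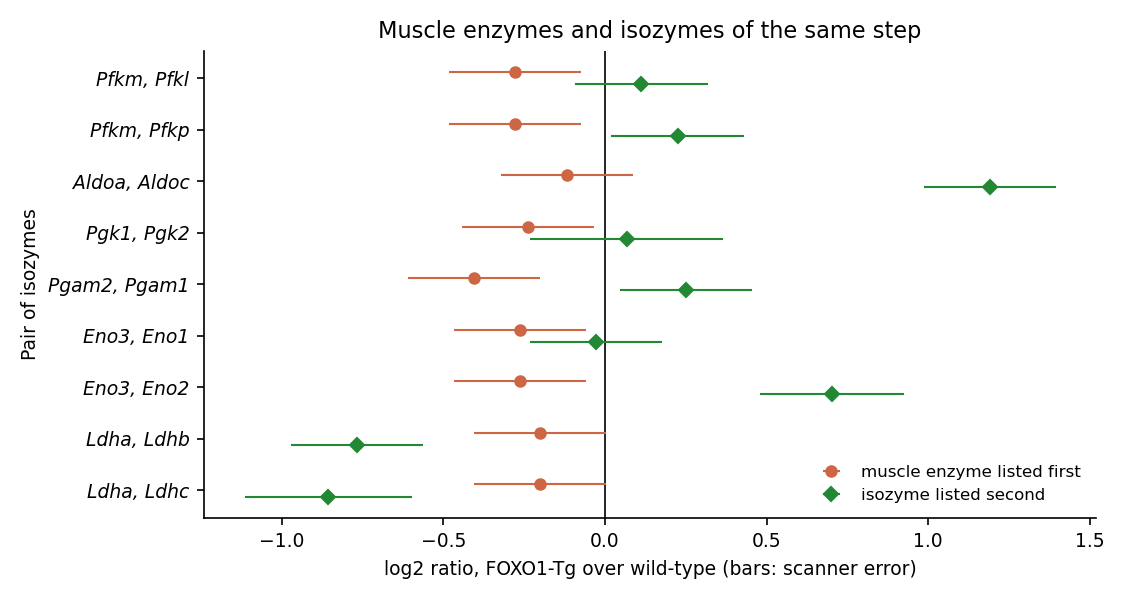
The log2 ratio (FOXO1-Tg over wild-type) of a muscle enzyme and of an isozyme of the same step for 9 pairs, with the scanner error as bars. Aldoc (1.19) lies far above Aldoa (-0.12), Eno2 (0.70) above Eno3 (-0.26) and Pgam1 (0.25) above Pgam2 (-0.41), whereas Ldhb (-0.77) lies below Ldha (-0.20).

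Beside these ratios, markers of other cell types differed between the same arrays. All 8 adipocyte markers were more than 1.5-fold higher in the FOXO1-Tg pool, with a median log2 ratio of 1.89, and their signals summed to 103485 (wild-type) and 306145 (FOXO1-Tg). Of 6 Schwann cell markers, 4 were more than 1.5-fold higher (median 0.90, summed signal 72311 and 101792), as were all 5 keratinocyte markers (median 1.35, summed signal 1338 and 7212, with Krt1 not well above background in the wild-type pool) and 2 of 6 fibroblast markers (median 0.50, 310298 and 437048). No marker of macrophages (6, median 0.39, 11402 and 16976), endothelium (8, median -0.20, 35806 and 35926), smooth muscle (4, median 0.17, 14773 and 18394) or red cells (4, median -0.49, 77251 and 62208) passed 1.5-fold. Without scaling, 4 of 6 fibroblast markers, 2 of 6 macrophage markers and 1 of 4 smooth muscle markers were more than 1.5-fold higher. Over all genes, 9.18% were higher and 10.8% lower by more than 1.5-fold in the scaling used here. Genes of slow fibers were lower, 8 of 11 by more than 1.5-fold, with a median of -1.39 and a summed signal of 432397 and 187288, whereas 1 of 14 fast fiber genes was (Casq1, -0.86), with a median of -0.18. The part of these cell and fiber types in the ratios of the enzymes and isozymes was not tested, and in bulk muscle fewer cells of a type and less RNA per cell cannot be told apart.

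Some genes around the 10 enzymes had larger differences than any of the 10, while the medians of some lists were like theirs. Large ratios were rarer at high signal, with 3.04% of genes as bright as Pkm or brighter past 1.5-fold, against 20.01% of all genes. The part of signal in this contrast was not tested. Over all genes, 10.8% were lower and 9.18% higher by more than 1.5-fold. Among the genes for glucose entry, 4 of 7 detected genes passed 1.5-fold downward and none upward, with a median of -0.67. The count was 3 without scaling, where Slc2a4 did not pass. Slc2a4, the insulin-responsive glucose transporter GLUT4, gave 169055 (wild-type) and 116208 (FOXO1-Tg) (log2 ratio -0.67). Hk2, the main hexokinase of muscle, which makes the substrate of Gpi1, gave 41438 and 23854 (-0.93). Slc2a1, the widely expressed transporter GLUT1, gave 2916 and 3860, the highest (0.28). Hk2 and Slc2a4 were each further below 0 than every one of the 10 enzyme genes.

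Among 8 regulators of flux through the pathway, Pfkfb3, whose product makes the activator of phosphofructokinase, gave 53050 and 96273 (0.73, the highest). The other Pfkfb genes went both ways, with 16515 and 10400 for Pfkfb4 (-0.80), -0.46 for Pfkfb2 and 0.32 for Pfkfb1. Fbp2, the muscle fructose bisphosphatase, which opposes phosphofructokinase, gave 3770 and 2016 (-1.03, the lowest by the brightest probe of each gene). Pfkfb4 had 2 probes, and its ratio reached -1.49 under other ways of processing, below that of Fbp2. The counts past 1.5-fold in this list were 1 higher and 2 lower, beside 9.18% higher and 10.8% lower over all genes, with a list median of -0.22. Of 11 glycogen genes, 2 were more than 1.5-fold lower (10.8% over all genes), and 1 (Ppp1r3c) was without scaling. The glycogen-targeting phosphatase subunit Ppp1r3c gave 80437 and 26008 (-1.76), and Gys1, the muscle glycogen synthase, gave 37998 and 27347 (-0.60). The muscle phosphorylase Pygm, which supplies glucose 1-phosphate, gave 295456 and 257722 (-0.33). The median of the list was -0.33.

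For the fate of pyruvate and NADH, Slc16a3, the lactate exporter MCT4, gave 111350 and 81019 (-0.59), and the aspartate-glutamate carrier Slc25a12 was the lowest (-0.61) and Slc25a13 the highest (0.19) of 13 genes of NADH shuttles and lactate transport, 2 of which were more than 1.5-fold lower (0 without scaling). The median of this list was -0.25, the same as that of the 10 enzymes. Around pyruvate dehydrogenase, which passes pyruvate on to the mitochondrial oxidation, 2 of 13 genes passed 1.5-fold upward (1 to 3 over the 14 ways of processing, with neither of the 2 passing under all) and none downward, with a median of -0.20. Pdk4, the kinase that inactivates the complex, gave 92850 and 153441 (0.60), the phosphatase subunit Pdp2 gave 369 and 760 (0.91, the highest), and Pdhx was the lowest (-0.49). Of 14 genes for transcription factors known to act on glycolytic or muscle genes, Myc was more than 1.5-fold higher (242 and 442, 0.74), and Mef2a (-0.66) and Mef2c (-0.65) were more than 1.5-fold lower, with a median of -0.37. Neither Mef2a nor Mef2c passed 1.5-fold without scaling. Beside the counts of these lists, 9.18% of all genes were higher and 10.8% lower by more than 1.5-fold. Hif1a, which encodes the oxygen-regulated subunit of hypoxia-inducible factor 1, gave 748 and 864 (0.08).

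The direction of the smallest difference, that of Aldoa, depended on the scaling between arrays. The median of the 10 genes stayed below 0 under all 14 ways of processing, between -0.31 and -0.10, and below the median of all genes under each. Of the 10 genes, only Aldoa changed sign. Aldoa was at 0.01 without scaling, at 0.00 after quantile normalization, and at 0.03 with the Gapdh probe set to 0. The value of 0.00 follows from rank. Aldoa had rank 1 of 16660 genes on both arrays, and quantile normalization gives equal ranks equal values. The median of all genes itself moved from -0.06 to 0.06 without scaling, and relative to it the median of the 10 genes was -0.19 in the scaling used here. Settings that can alter this gap put it between -0.10 (normexp with quantile normalization) and -0.23 (dimmest probe), with -0.11 after quantile normalization. Of the settings that can change the order of the genes, quantile normalization, loess, and normexp with quantile normalization left Pkm the lowest and Pgam2 next. With the median (-0.42) or the mean (-0.42) over its probes Ldha came second, and with the dimmest probe (-0.63) it was the lowest.

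**Figure D5:**
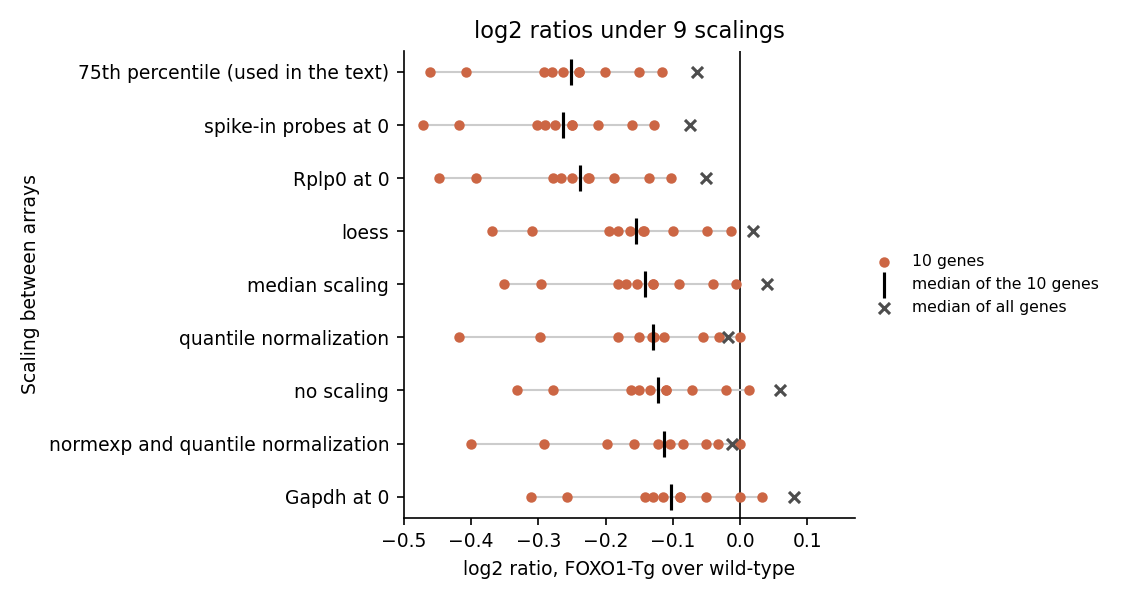
The log2 ratios (FOXO1-Tg over wild-type) of the 10 genes under 9 scalings between the arrays, with the median of the 10 genes as a vertical tick and the median of all genes as a cross. The median of the 10 genes lies between -0.26 and -0.10, always to the left of the median of all genes, and Aldoa reaches or passes 0 under 4 of the scalings. Where quantile normalization was used, its value of 0 is fixed by its rank.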

How the data were processed

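RNA of the gastrocnemius of 6 wild-type and 5 FOXO1-Tg mice was pooled by genotype, labeled with cyanine 3 and hybridized to 1 array per pool. The authors deposited intensity values, which are background-subtracted processed signals made with Agilent Feature Extraction (11.0.1.1 per the file headers and 9.5 per the submitters' processing notes), with no scaling between arrays, and the deposited value table holds the same values. No spot was saturated, and 65.5% (wild-type) and 65.8% (FOXO1-Tg) of the spots were well above background. The number of arrays limits the precision.

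Signals were converted to log2, and the log2 of the array's 75th percentile was subtracted. Spots with an outlier flag (237 of 59305) were left out, spots of a probe were averaged, and detection of a probe required well-above-background signal in 50% or more of its spots. Probes were named through their transcripts in a RefSeq gene table (GRCm38.p6), which named 28331 of 55681 probes. The array design uses mm9, and no position was taken from that table. The value of a gene is that of its brightest detected probe (mean of both arrays). A ratio with a probe below background on 1 array is a bound against the lowest well-above-background signal. No test was possible with 1 array per group, so counts past 1.5-fold and 2-fold are given.

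The genes and lists were chosen with earlier results of these data known. The text names all 10 enzymes, each detected isozyme, the highest and lowest gene of each list of the pathway and genes that mark a step of it; for lists of cell types and fibers mostly counts are given. Some genes that this rule covers are not reported here. Alternatives were 7 other scalings, normexp (offset 50) on median signals, since the files hold no mean signals, the value table, outlier spots kept, 3 other rules for probes, and other thresholds and filters. The procedure was tested on simulated data with known folds, which checks the computation only. The simulation held no difference between mice, no disagreement in fold between probes of a gene and no scanner ceiling. Computations were done in R 4.3.3 (limma 3.58.1) and Python 3.11.15 (matplotlib 3.10.9, numpy 2.4.6, pandas 2.3.3).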

Additional observations from a re-analysis of the deposited data

How the results depend on the processing

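No paired analysis was possible because there was 1 array per genotype, made from a pool. Over 12 alternatives, 117 of 120 values of single enzymes stayed within the scanner error of the value given above, and the 3 others were Ldha with other rules for its probes (-0.42 with the median or the mean over its probes and -0.63 with the dimmest). Many of the 117 could not have moved further. The value table and the kept outlier spots gave the same values, and other rules for probes cannot alter the 6 genes with 1 probe. The scalings by 1 factor among these alternatives shifted all 10 genes alike, by at most 0.13. The count therefore says little about robustness. The median of the 10 genes lay between -0.31 (dimmest probe) and -0.10 (Gapdh set to 0, an alternative chosen after seeing the data, as was leaving out Aldoa, -0.26). With the dimmest probe, 1 gene (Ldha) was past 1.5-fold. At the lowest threshold tried, a level under 0.8 times that of the wild-type pool or the same fold upward, 2 genes (Pkm and Pgam2) passed, both lower. Of all genes, 8.06% were past 2-fold and 20.01% past 1.5-fold in either direction. With only genes as bright as the 10, these shares were 0.380% and 3.04%, and with no filter on dim probes 12.9% were past 2-fold. A scaling by 1 factor leaves a difference between isozymes as it is. Under quantile normalization, loess, normexp and the other rules for probes, all 9 differences kept their sign, with ranges, the value given above included, of 1.096 to 1.31 for Aldoc over Aldoa, 0.54 to 0.99 for Eno2 over Eno3, 0.58 to 0.66 for Pgam1 over Pgam2 and -0.70 to -0.14 for Ldhb over Ldha. Signals near the top of the scanner range limit Aldoa, and low signals limit Eno2 and the genes known from testis.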
